A study of Arabidopsis thaliana with 12 samples.

Results

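The aquaporins of Arabidopsis were taken from the count table by gene identifier, as the complete list of 35 major intrinsic proteins. The table given held 34 of them among 36061 named genes: 5 PIP1, 8 PIP2, 10 TIP, 8 NIP and 3 SIP genes. A further NIP gene of the list was not analysed here. Membership rests on gene identity and on no measured value, but the family was chosen with earlier results of these data known. Genes carry the systematic family name, and those better known by their RefSeq symbol carry that symbol: *PIP1A* (PIP1;1, AT3G61430), *PIP1B* (PIP1;2, AT2G45960), *PIP1C* (PIP1;3, AT1G01620), *PIP2A* (PIP2;1, AT3G53420), *PIP2B* (PIP2;2, AT2G37170), *PIP2E* (PIP2;6, AT2G39010), *GAMMA-TIP* (TIP1;1, AT2G36830) and *DELTA-TIP* (TIP2;1, AT3G16240). The other genes followed most closely were *PIP2;7* (AT4G35100), *TIP1;2* (AT3G26520), *PIP1;4* (AT4G00430), *PIP2;5* (AT3G54820), *PIP2;8* (AT2G16850) and *SIP1;1* (AT3G04090).

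RNA-seq had been done on rosette leaves of soil-grown Columbia-0 plants in 4 groups of 3 libraries. PHD6-drought plants carried the *MtPHD6* transgene and were deprived of water, WT-drought plants had no transgene and were deprived of water, PHD6-control plants carried the transgene and were watered, and WT-control plants had neither the transgene nor drought. *MtPHD6* encodes a PHD finger protein of the Alfin1-like family from *Medicago truncatula*, which was expressed in homozygous Arabidopsis lines. The sample records give 10 days after drought for all 12 libraries, the watered ones included, while the study's text gives a shorter time, and neither says which transgenic line a library came from. Leaf samples are described as collected from several containers of plants, and how many plants went into a library is not said.

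Aquaporins are membrane channels that let water, and in some members small uncharged solutes or CO2, pass down a gradient. Plasma membrane intrinsic proteins (PIPs) carry water across the cell surface, and PIP1 proteins often need a PIP2 partner to reach it. Tonoplast intrinsic proteins (TIPs) sit in the vacuole membrane, NIPs carry mainly boric acid, silicic acid and other small solutes, and SIPs lie in the endoplasmic reticulum. In leaves, PIPs of the veins and the bundle sheath set much of the hydraulic conductance, and many PIP transcripts are known to decline when Arabidopsis leaves dry.

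Some library facts bear on the values below. Total counts over named genes ran from 17839925 to 24717357 per library. Expression was given as CPM, counts scaled to library size with TMM factors that correct for differences in composition, and levels of different genes were compared only as TPM, which also corrects for gene length. Leaf genes were present, with the Rubisco gene *RBCS1A* at 11055 CPM or more in each library, while of 6 root markers 5 stayed at 7 counts or fewer and of 4 seed markers all stayed at 4 counts or fewer. The other root marker, *PYK10*, was present at 40.1 to 137 CPM. Summed over 5 flower and anther markers, libraries held 1.31 to 6.96 CPM in PHD6-drought and 1.03 to 2.55 in WT-drought. In PHD6-control the sum was 1.09 to 8.06 CPM and in WT-control 1.56 to 8.42. The source of these reads was not tested. The water deficit markers did not rise with drought. In WT-drought vs. WT-control 5 of 7 tested markers were lower and 0 higher, beside 7.18% of all genes that were lower, and in PHD6-drought vs. PHD6-control 7 of 7 were lower, beside 12.7%. Without WT-drought replicate 2 or replicate 3 the number in WT plants was 3, and without PHD6-control replicate 1 the number in *MtPHD6* plants was 4. The lower share of all genes in these fits was 3.39, 3.34 and 6.44%. *COR15A*, a chloroplast protein induced by cold and drying, averaged 6.27 ± 2.26 CPM in PHD6-drought, 11.5 ± 4.04 in WT-drought, 58.3 ± 28.6 in PHD6-control and 39.2 ± 7.65 in WT-control (SD, n = 3). The groups called drought are therefore named by their labels only.

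The 300 bases around 4 gene starts are given here, each 5′ to 3′ on the strand of the gene. They run from 250 bases before the start annotated in TAIR10.1 (RefSeq) to 50 bases after it. The promoters of *PIP1C*, *PIP2;7* and *DELTA-TIP* are shown because these members passed the test of a different drought response in the genotypes, *DELTA-TIP* only under few of the alternatives run, and that of *GAMMA-TIP* because, of the 34 members, it alone held both drought-related cores searched. Capitals mark 4 motifs on either strand: ACGTG, the core of the ABA-responsive element, CCGAC, the core of the dehydration-responsive element, and GNGGTG and GTGGNG, which spell the Alfin1 site.
PIP1C, chr1:227494-227793, minus strand: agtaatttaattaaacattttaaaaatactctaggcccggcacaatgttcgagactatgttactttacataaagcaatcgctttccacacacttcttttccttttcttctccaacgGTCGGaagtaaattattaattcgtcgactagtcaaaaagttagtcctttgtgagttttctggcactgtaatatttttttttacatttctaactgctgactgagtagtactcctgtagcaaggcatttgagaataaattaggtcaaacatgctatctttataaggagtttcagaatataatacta
PIP2;7, chr4:16708111-16708410, plus strand: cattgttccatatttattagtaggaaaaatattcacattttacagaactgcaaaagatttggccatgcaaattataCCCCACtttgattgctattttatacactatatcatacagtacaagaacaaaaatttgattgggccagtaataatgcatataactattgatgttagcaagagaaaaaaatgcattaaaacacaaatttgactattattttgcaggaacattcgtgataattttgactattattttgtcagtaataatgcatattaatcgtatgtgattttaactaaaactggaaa
DELTA-TIP, chr3:5505110-5505409, plus strand: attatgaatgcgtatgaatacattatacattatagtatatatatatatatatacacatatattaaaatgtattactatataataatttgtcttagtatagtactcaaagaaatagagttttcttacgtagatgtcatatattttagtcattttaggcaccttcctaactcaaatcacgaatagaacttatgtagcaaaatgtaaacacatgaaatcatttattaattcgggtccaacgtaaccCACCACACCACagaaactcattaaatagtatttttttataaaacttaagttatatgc
GAMMA-TIP, chr2:15445044-15445343, plus strand: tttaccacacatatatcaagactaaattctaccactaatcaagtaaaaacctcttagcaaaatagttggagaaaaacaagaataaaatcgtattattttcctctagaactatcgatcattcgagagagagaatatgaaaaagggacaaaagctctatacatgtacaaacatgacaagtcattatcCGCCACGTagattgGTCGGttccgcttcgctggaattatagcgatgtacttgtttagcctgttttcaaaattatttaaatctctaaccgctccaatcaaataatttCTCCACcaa
The *PIP1C* promoter held 1 CCGAC site and the *PIP2;7* promoter 1 Alfin1 site, GTGGNG on the other strand. The *DELTA-TIP* promoter held 2 overlapping Alfin1 sites, each of which fits both spellings. In *GAMMA-TIP* an Alfin1 site overlapped an ACGTG site, with a CCGAC site and 1 more Alfin1 site downstream.

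The motifs were counted in the promoters of all members beside those of all protein-coding genes, with no test of the difference. ACGTG was present in 6 of 34 promoters (17.6%), against 26.7% of 27048 promoters of protein-coding genes, and in none of the 5 PIP1, 8 PIP2 and 8 NIP promoters. CCGAC was present in 4 (11.8%), against 15%, namely *PIP1C*, *PIP2;5*, *GAMMA-TIP* and *TIP1;2*. An Alfin1 site in either spelling was present in 12 (35.3%), against 28.4%. The spellings taken singly lay on different sides of the background, with GNGGTG in 14.7%, against 16.6%, and GTGGNG in 29.4%, against 22.2%. The W-box core TTGAC was present in 55.9%, against 50.4%, and the evening element AAAATATCT in 0 members, against 2.81%. These are matches of letters in a window of 300 bases and were not read as sites in use.

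The family made up 0.622 to 0.680% of all transcripts in PHD6-drought libraries, 0.814 to 0.856% in WT-drought, 0.774 to 0.889% in PHD6-control and 0.714 to 0.895% in WT-control, by TPM. Every PHD6-drought library was thus below every other library. TIPs held 51.1 ± 0.376% of the family's TPM in PHD6-drought and 51.6 ± 0.289% in WT-drought, PIP1 genes 25.8 ± 0.437 and 24.9 ± 0.0690%, and PIP2 genes 20.3 ± 0.170 and 21.4 ± 0.328% (SD, n = 3). The makeup of the family by subfamily thus moved by about a percentage point while its total was below that of the other groups. SIPs took 2.08 ± 0.140% in PHD6-drought and 1.60 ± 0.0693% in WT-drought, and NIPs 0.685 ± 0.0910 and 0.454 ± 0.0754%.

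The most abundant member was *TIP1;2* with a mean of 1948 TPM over the 12 libraries, followed by *DELTA-TIP* with 1167, *PIP1B* with 786, *GAMMA-TIP* with 784, *PIP2;7* with 717, *PIP1C* with 569 and *PIP2A* with 550 TPM. *TIP1;2* was above *DELTA-TIP* in each group by more than their SDs, whereas *PIP1B* and *GAMMA-TIP* did not differ beyond their spread, with 635 ± 22.5 and 640 ± 59.7 TPM in PHD6-drought and 895 ± 101 and 857 ± 83.8 in WT-control. Below these came *PIP1;5* (313 TPM), *PIP2E* (244), *PIP1A* (170), *PIP1;4* (160), *TIP2;2* (140), *PIP2B* (98.1) and *SIP1;1* (94.0). The leading NIPs were *NIP1;2* with 18.4 TPM and *NIP6;1* with 17.3 TPM, which did not differ beyond their spread in any group. *NIP1;2*, which carries aluminium as its malate complex, had 16.3, 17.3 and 17.2 CPM in PHD6-drought, 15.2, 14.4 and 18.2 in WT-drought, 17.8, 19.1 and 15.5 in PHD6-control and 19.7, 17.2 and 18.2 in WT-control, so that all groups overlapped. *PIP2B* and *PIP2;3* are 94.8% identical over 858 coding bases, so their values are uncertain where the counting could split or drop shared reads.

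In TAIR10.1 *DELTA-TIP* lies at chr3:5505360-5507050 on the plus strand and *GAMMA-TIP* at chr2:15445294-15446621 on the plus strand. *PIP2A* lies at chr3:19803473-19805730 and *PIP1C* at chr1:225665-227543, both on the minus strand, and *PIP1B* at chr2:18910081-18911982 and *PIP2E* at chr2:16291280-16294101, both on the plus strand. All are protein-coding genes whose exon counts were summed over the whole gene, so no isoform is told apart.

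The filter on low counts kept 25 members: all PIPs and SIPs, 5 TIPs and 4 NIPs. *TIP1;3*, *TIP3;2* and *NIP4;1* had 0 counts in all 12 libraries, and *TIP2;3*, *TIP3;1*, *TIP5;1*, *NIP1;1*, *NIP3;1* and *NIP4;2* had at most 10 in any. *TIP3;1* and *TIP3;2* belong to seed storage vacuoles and *TIP1;3*, *TIP5;1*, *NIP4;1* and *NIP4;2* to pollen.

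**Figure D1:**
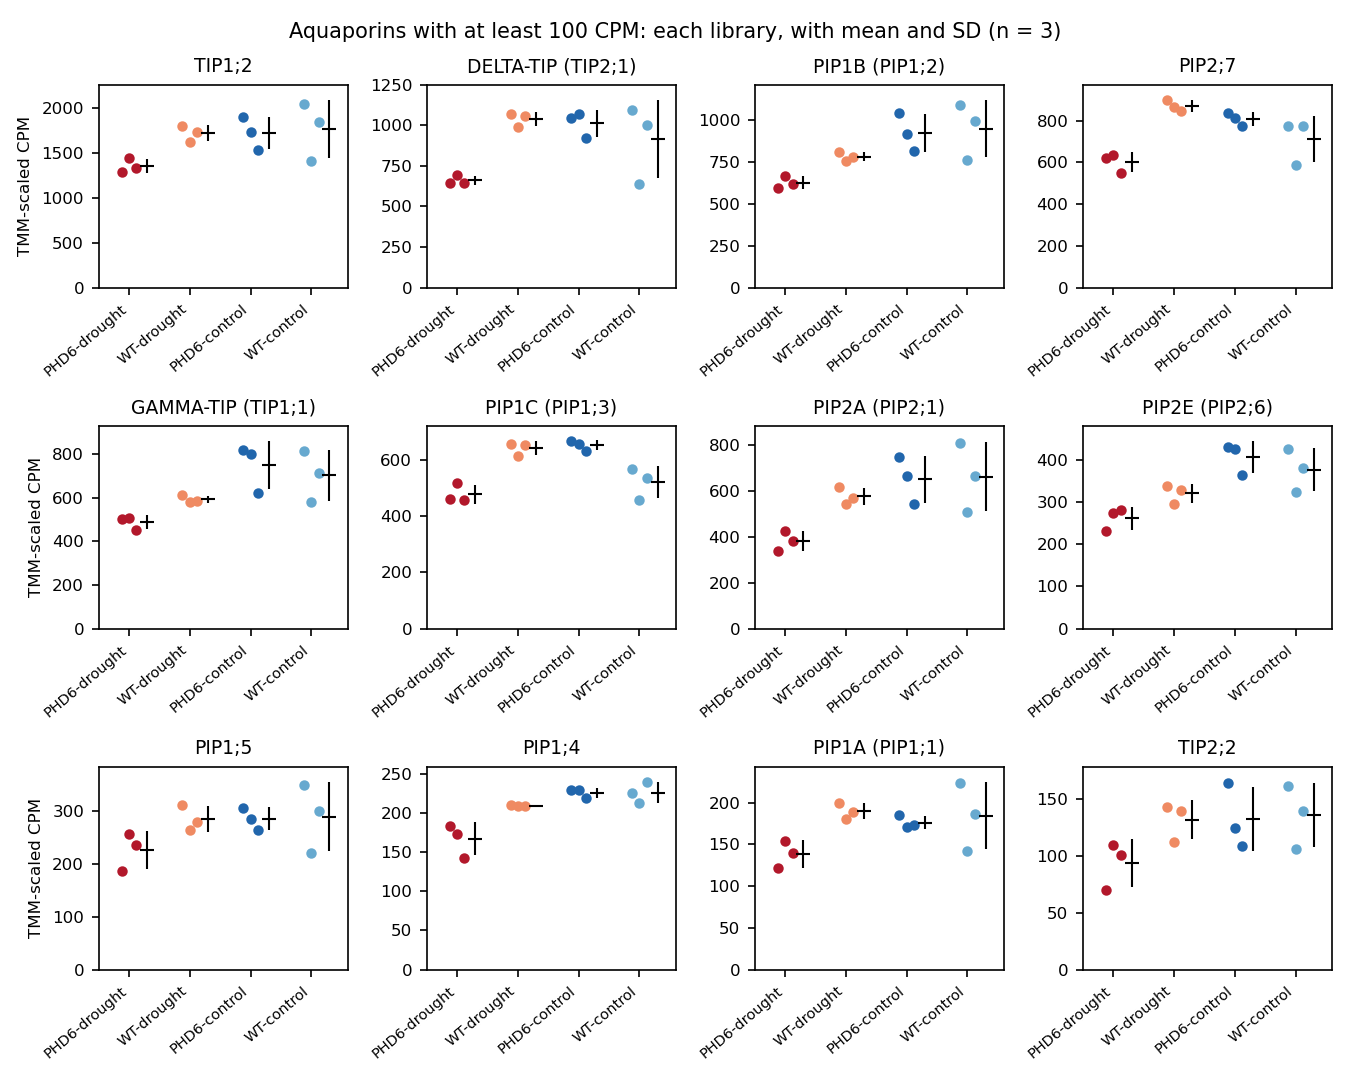
TMM-scaled CPM (vertical axes, from 0) of the 12 aquaporins averaging 100 CPM or more, by library (points, replicates 1 to 3 from left to right) with the mean and SD of each group of 3. The 3 PHD6-drought libraries lie low in each panel, and WT-control replicate 2 is the lowest of its group in all 12.

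**Figure D2:**
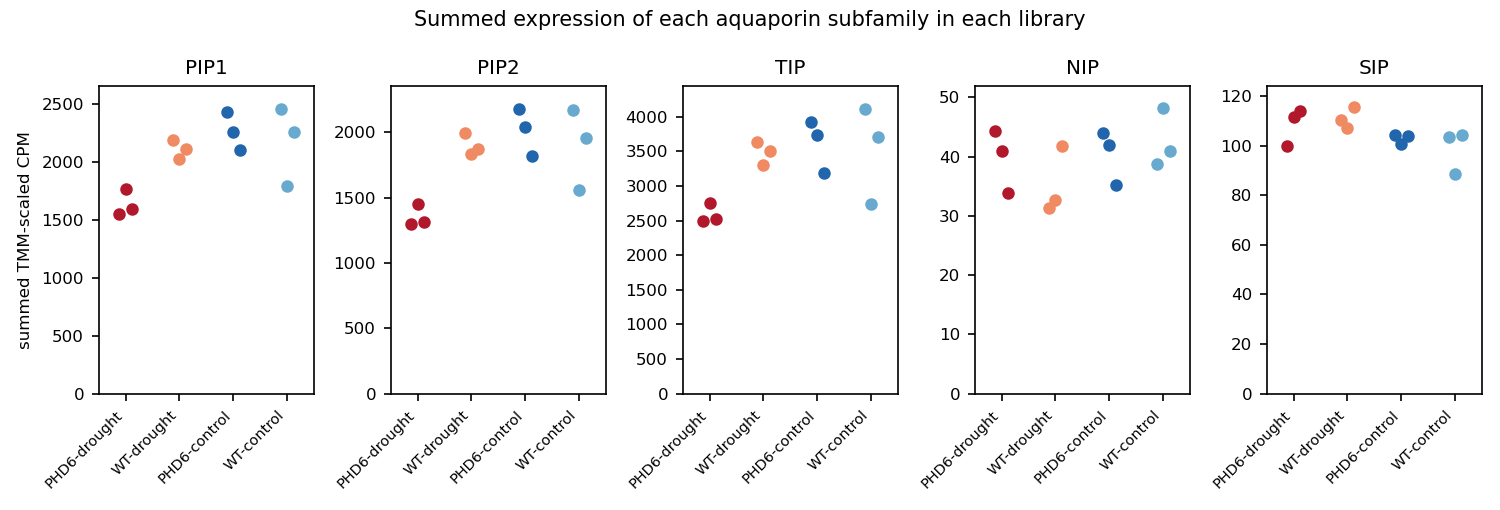
Summed TMM-scaled CPM (vertical axes, from 0) of the PIP1, PIP2, TIP, NIP and SIP genes in each of the 12 libraries (points). For PIP1, PIP2 and TIP the 3 PHD6-drought libraries lie below all WT-drought libraries, while for NIP and SIP these groups overlap.

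The effect of the transgene under drought was asked by PHD6-drought vs. WT-drought. Among the 12 aquaporins averaging 100 CPM or more 7 were lower in *MtPHD6* leaves, and the other 5 did not pass the test. Of 25 members tested 7 were lower and 0 higher in edgeR's quasi-likelihood test at an adjusted p under 0.05, beside 3.89% of all 19681 genes tested that were lower. They were *PIP1A*, *PIP1B*, *PIP1C*, *PIP2A*, *PIP2;7*, *TIP1;2* and *DELTA-TIP*. The median log2 fold change was -0.28 over the members and 0.01 over all genes, and 14 members had groups that did not overlap, beside 28.4% of all genes.

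*DELTA-TIP*, a vacuolar water channel that also carries ammonia, had 643, 694 and 643 CPM in PHD6-drought against 1072, 988 and 1056 CPM in WT-drought. All 3 transgenic libraries were below all 3 WT libraries. The estimated log2 fold change was -0.64 (SE, the standard error of the fit, 0.07, adjusted p = 0.00749 from edgeR). *TIP1;2*, its more abundant relative in the same membrane, had 1281, 1438 and 1328 CPM in PHD6-drought against 1800, 1621 and 1725 CPM in WT-drought, again without overlap, and a log2 fold change estimated at -0.34 (SE 0.08, adjusted p = 0.0400). Reads of *DELTA-TIP* may include those of 2 genes that overlap it on the opposite strand, since the use of strand in counting is not stated.

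*PIP2A*, a main plasma membrane water channel of leaf veins and guard cells, had 337, 426 and 379 CPM in PHD6-drought against 617, 542 and 567 CPM in WT-drought. *PIP2;7*, another water channel of the cell surface, had 619, 635 and 548 CPM in PHD6-drought against 900, 863 and 844 CPM in WT-drought. Neither pair of groups overlapped. The log2 fold changes were -0.59 (SE 0.10, adjusted p = 0.0129) for *PIP2A* and -0.52 (SE 0.08, adjusted p = 0.00999) for *PIP2;7*.

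*PIP1C* had 462, 517 and 456 CPM in PHD6-drought against 658, 613 and 654 CPM in WT-drought. *PIP1B*, which contributes to the hydraulic conductivity of the rosette and to CO2 uptake, had 595, 666 and 618 CPM in PHD6-drought against 807, 755 and 777 CPM in WT-drought. In both genes the highest PHD6-drought library stayed below the lowest WT-drought library. *PIP1A*, a relative of *PIP1B*, was scarcer, with 121, 154 and 140 CPM in PHD6-drought against 199, 180 and 189 CPM in WT-drought, also without overlap. Log2 fold changes were -0.41 (SE 0.08, adjusted p = 0.0188) for *PIP1C*, -0.31 (SE 0.07, adjusted p = 0.0414) for *PIP1B* and -0.44 (SE 0.09, adjusted p = 0.0278) for *PIP1A*.

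The other abundant members had values in the same direction that did not pass the test, from -0.27 for *GAMMA-TIP* to -0.48 for *TIP2;2*. NIPs and SIPs did not pass it, with *NIP6;1*, a boric acid channel of nodes, at 0.33 (SE 0.19, adjusted p = 0.339) and *SIP2;1* at 0.00 (SE 0.08). The count rested on single libraries: without WT-drought replicate 1 it was 1 (*DELTA-TIP*), without PHD6-drought replicate 3 or WT-drought replicate 3 it was 3, and without WT-drought replicate 2 it was 4. DESeq2 called 12, and the fit of all 12 libraries 3. The share of all genes that were lower moved too, from 3.89% to 0.920% without WT-drought replicate 1. It was 1.96% without PHD6-drought replicate 3, 1.69% without WT-drought replicate 3 and 1.71% without WT-drought replicate 2. DESeq2 gave 5.31% and the fit of all 12 libraries 3.25%. The median log2 fold change of the members was -0.33 to -0.22 with a library left out. The call of *DELTA-TIP* held under the 12 alternatives run, and that of *PIP2A* was lost without WT-drought replicate 1 and in the fit of all 12 libraries. Calls were lost in 1 of the 12 for *PIP2;7*, 4 for *PIP1C*, 6 for *PIP1A* and 7 each for *PIP1B* and *TIP1;2*.

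**Figure D3:**
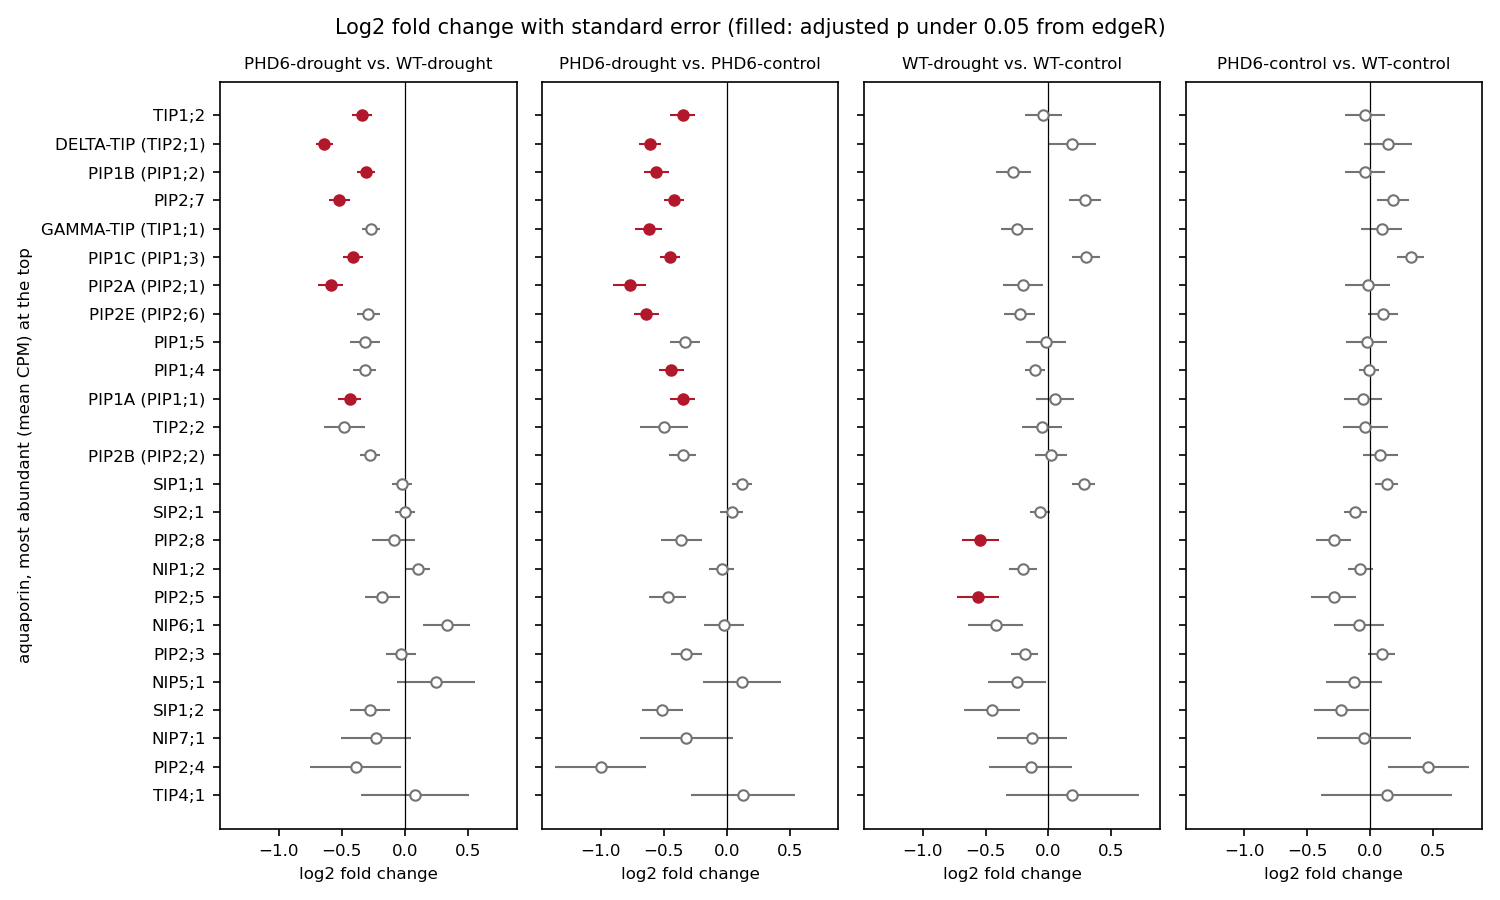
Log2 fold change (horizontal axes) of the 25 tested aquaporins, ordered by mean CPM with the most abundant at the top, in the 4 comparisons. Bars are standard errors and filled red points passed an adjusted p under 0.05 in edgeR: 7 in PHD6-drought vs. WT-drought, 10 in PHD6-drought vs. PHD6-control, 2 in WT-drought vs. WT-control and 0 in PHD6-control vs. WT-control.

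The response of *MtPHD6* leaves to drought was asked by PHD6-drought vs. PHD6-control, which shares its PHD6-drought libraries with the comparison above. Of 25 members 10 were lower and 0 higher, beside 12.7% of all genes that were lower. The 7 genes named above were joined by *PIP1;4*, *PIP2E* and *GAMMA-TIP*. The median log2 fold change was -0.36 over the members and 0.02 over all genes, and the groups of 16 members did not overlap, beside 41.2% of all genes.

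*PIP2A* had 337, 426 and 379 CPM in PHD6-drought against 746, 662 and 543 CPM in PHD6-control, a log2 fold change estimated at -0.77 (SE 0.13, adjusted p = 0.00581 from edgeR). *PIP2E*, which is expressed in leaf veins, had 231, 274 and 281 CPM in PHD6-drought against 432, 426 and 364 CPM in PHD6-control and a log2 fold change estimated at -0.64 (adjusted p = 0.00479). Both sets of drought libraries lay wholly below the watered ones. *GAMMA-TIP*, an abundant tonoplast channel, had 504, 507 and 452 CPM in PHD6-drought against 820, 802 and 621 CPM in PHD6-control and a log2 fold change estimated at -0.62 (adjusted p = 0.00835).

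*DELTA-TIP* had 1046, 1069 and 919 CPM in PHD6-control, against which the PHD6-drought libraries gave a log2 fold change estimated at -0.61 (adjusted p = 0.00291). *PIP1B* had 1039, 916 and 814 CPM in PHD6-control and a log2 fold change estimated at -0.56 (adjusted p = 0.00765). *PIP1C* had 667, 657 and 632 CPM there and a log2 fold change estimated at -0.45 (adjusted p = 0.00677). In all 3 genes the watered libraries lay above each PHD6-drought library. These 3 genes, *PIP2A*, *PIP2E* and *GAMMA-TIP* kept their calls under the 12 alternatives run.

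*PIP1;4*, known in Arabidopsis leaves as a member that rises with drying, was among the lower ones here, with 184, 173 and 143 CPM in PHD6-drought against 230, 230 and 219 CPM in PHD6-control (log2 fold change -0.44, adjusted p = 0.0167). Its call was lost without PHD6-control replicate 1 or replicate 2 (highest adjusted p 0.0710 from edgeR). *PIP2;5*, known for the same behaviour, had 14.6, 12.6 and 10.0 CPM in PHD6-drought against 19.4, 17.3 and 15.2 CPM in PHD6-control and did not pass (-0.47, adjusted p = 0.0575). The remaining calls were *PIP2;7* (-0.42), *PIP1A* (-0.35) and *TIP1;2* (-0.35), of which *PIP2;7* was lost in 1 of the 12 alternatives, *PIP1A* in 4 and *TIP1;2* in 7. *TIP1;2* was called with a library left out only without PHD6-control replicate 3, and *PIP1A* was lost without PHD6-drought replicate 3, PHD6-control replicate 1 or PHD6-control replicate 2. Without PHD6-control replicate 1 the number of members lower was 6, beside 6.44% of all genes, those just said to have kept their calls.

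Across the 12 libraries 6 members had all 3 PHD6-drought values below the other 9, beside 7.30% of all genes tested: *PIP1B*, *PIP1;4*, *PIP2A*, *PIP2E*, *GAMMA-TIP* and *SIP1;2*. The first 5 are abundant channels. *SIP1;2*, with 3.20, 3.71 and 3.78 CPM in PHD6-drought, passed no test, and 2 genes overlap it on the opposite strand.

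In both comparisons abundant genes were lower more often than scarce ones. Of 1875 genes averaging 100 CPM or more, 9.92% were lower in PHD6-drought vs. WT-drought and 33.0% in PHD6-drought vs. PHD6-control, against 3.25 and 10.5% of the 17806 genes under that level. Among the 12 aquaporins of that level 7 and 10 were lower in these comparisons, with median log2 fold changes of -0.38 and -0.47 against -0.06 and -0.12 over the 1875 genes. Of the 13 aquaporins under 100 CPM 0 passed in either comparison.

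Of 4 mesophyll markers 1 was lower in PHD6-drought vs. WT-drought and 2 in PHD6-drought vs. PHD6-control, beside 3.89 and 12.7% of all genes. The summed level of 4 mesophyll markers ranged from 18077 to 22787 CPM in PHD6-drought, 23114 to 25585 in WT-drought, 26120 to 30477 in PHD6-control and 21170 to 33815 in WT-control, and 0 of the 4 were at 0. The carbonic anhydrase gene *CA1* was lower in PHD6-drought vs. WT-drought (-0.55, adjusted p = 0.0440 from edgeR) and in PHD6-drought vs. PHD6-control (-1.56, adjusted p = 4.83e-04). It was also lower in WT-drought vs. WT-control (-1.02, adjusted p = 0.00686), the only 1 of the 4 called there, beside 7.18% of all genes. The other mesophyll markers did not pass in PHD6-drought vs. WT-drought, with *RBCS1A* at -0.13 (adjusted p = 0.557), *RBCS3B* at -0.26 (adjusted p = 0.187) and *CAB2* at -0.43 (adjusted p = 0.0677). Of 4 guard cell markers 1, *KAT1*, was lower in PHD6-drought vs. PHD6-control (-0.76, adjusted p = 0.0186), beside 12.7% of all genes. The same marker was lower in WT-drought vs. WT-control (-0.68, adjusted p = 0.0443), beside 7.18%. The summed level of 4 guard cell markers ranged from 40.2 to 54.3 CPM in PHD6-drought, 49.1 to 51.9 in WT-drought, 49.9 to 61.3 in PHD6-control and 49.1 to 73.9 in WT-control, and overlapped between PHD6-drought and WT-drought. The part of these cell types in the aquaporin values was not tested, and in whole leaves fewer cells of a type and less RNA per cell cannot be told apart.

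The response of WT leaves to drought was asked by WT-drought vs. WT-control, where 2 of 25 members were lower, *PIP2;8* and *PIP2;5*, and 0 higher, beside 7.18% of all genes that were lower. *PIP2;8*, a scarce plasma membrane channel, had 16.9, 15.9 and 13.8 CPM in WT-drought against 18.0, 26.7 and 23.3 CPM in WT-control (log2 fold change -0.54, SE 0.15, adjusted p = 0.0306 from edgeR). *PIP2;5* had 12.4, 14.9 and 15.2 CPM in WT-drought against 16.0, 26.2 and 20.5 CPM in WT-control (-0.56, SE 0.17, adjusted p = 0.0499). In both genes the groups did not overlap, and both calls were lost without any 1 of the WT-drought libraries, without WT-control replicate 2 or without WT-control replicate 3. The median over the members was -0.13, against -0.01 over all genes.

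The spread of WT-control was wide, with 1 library low. WT-control replicate 2 was the lowest of its group for all 12 aquaporins that averaged 100 CPM or more, with 640 CPM of *DELTA-TIP* against 1096 and 1004 in replicates 1 and 3, and 507 CPM of *PIP2A* against 808 and 664. Without it 5 members were lower in WT-drought, among them *PIP1B*, *PIP2A*, *PIP2E* and *GAMMA-TIP*, and 1, *PIP1C*, was higher. Calls over all 19681 genes tested rose too, from 1413 to 2361 lower and from 2406 to 2627 higher. In the other groups too the members moved together: WT-drought replicate 1 was the highest of its group for 12 of the 12, and PHD6-control replicate 3 the lowest of its group for 11. With the replicate number as a block *SIP1;1*, a channel of the endoplasmic reticulum, was higher in WT-drought, with 85.0, 80.2 and 89.1 CPM against 75.8, 62.2 and 71.9 CPM in WT-control (log2 fold change 0.28, with an adjusted p from edgeR of 0.0341 with the block and 0.0636 without it). In *MtPHD6* leaves it had 73.8, 86.9 and 88.9 CPM in PHD6-drought against 78.8, 74.5 and 76.7 CPM in PHD6-control, and the groups overlapped.

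In watered plants the transgene was set against WT in PHD6-control vs. WT-control. Of 25 members 0 were called in either direction by edgeR, beside 4.98% of all genes, and 1 had an unadjusted p under 0.05. That member was *PIP1C*, with 667, 657 and 632 CPM in PHD6-control against 569, 456 and 537 CPM in WT-control. The groups did not overlap, and the fitted difference was 0.32 on the log2 scale (SE 0.11, adjusted p = 0.157). DESeq2 and the fit of all 12 libraries each called 1 of the 25 members, *PIP1C*, as higher. Of all 19681 genes tested 839 were higher in the main fit, 1219 with DESeq2 and 1262 in the fit of all 12 libraries. Over the 25 members log2 fold changes ran from -0.29 (*PIP2;5*) to 0.46 (*PIP2;4*, at about 1 CPM), with a median SE of 0.16.

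Whether drought acted differently in the genotypes was tested by the interaction over the 12 libraries, as the drought effect in *MtPHD6* leaves minus that in WT leaves. Of 25 members 3 passed, all with negative values, beside 5.60% of all genes with such values. All 3 averaged 100 CPM or more, a level at which 9.60% of 1875 genes had such values, against 5.18% of genes under it. The median difference there was -0.40 over the 12 members and -0.10 over the 1875 genes. *PIP1C* had a difference of -0.75 (SE 0.13, adjusted p = 0.00271 from edgeR), from log2 fold changes of -0.45 in *MtPHD6* and 0.30 in WT leaves. *PIP2;7* had a difference of -0.72 (SE 0.15, adjusted p = 0.0115), from -0.42 and 0.29. Both passed in the 17 alternatives run. *DELTA-TIP* had a difference of -0.80 (SE 0.22, adjusted p = 0.0457), from -0.61 and 0.19, and was lost in 13 of 17 alternatives, with adjusted p from 0.00591 to 0.106. Among them were the fits without any 1 of the PHD6-drought, WT-drought or PHD6-control libraries and that without WT-control replicate 3. In WT leaves *PIP1C* had 658, 613 and 654 CPM with drought against 569, 456 and 537 CPM when watered. *DELTA-TIP* had 1072, 988 and 1056 CPM in WT-drought against 1096, 640 and 1004 CPM in WT-control, where replicate 2 lay far below the other libraries. The WT fold changes of the 3 genes did not pass their own test. For *PIP2A* the difference was -0.57 with an adjusted p of 0.188, so a different response of that gene was not shown.

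**Figure D4:**
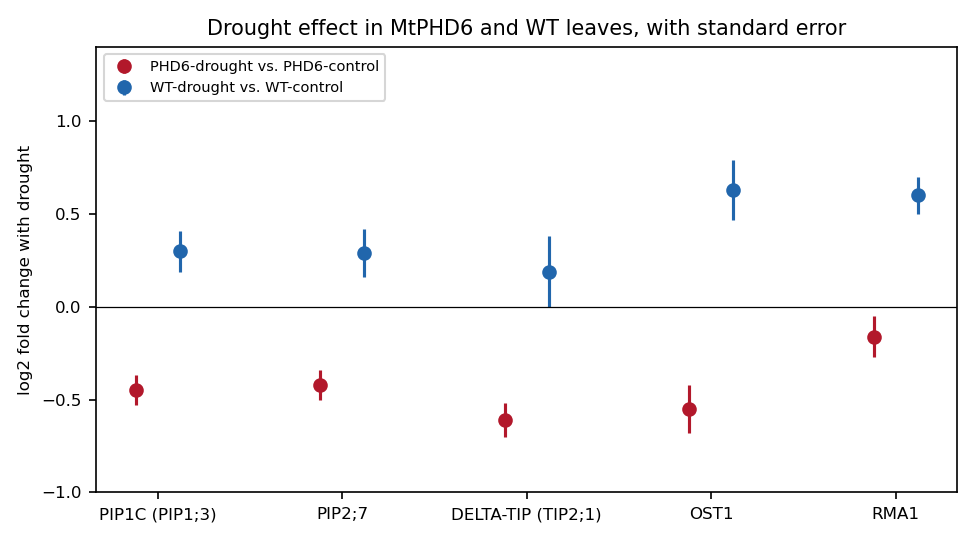
Log2 fold change with drought (vertical axis) in *MtPHD6* leaves (red, PHD6-drought vs. PHD6-control) and in WT leaves (blue, WT-drought vs. WT-control), with standard errors, for the 3 aquaporins and the 2 regulators that passed the interaction test. The red points lie below 0 and the blue points above 0 in all 5 genes. The red point of *RMA1* and the blue points of the 3 aquaporins did not pass their own test.

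Regulators of aquaporins were read from a list of 12 genes that act on their traffic, phosphorylation or turnover, of which 11 were tested. In WT-drought vs. WT-control 7 of 11 were higher and 0 lower, beside 12.2% of all genes that were higher. Without WT-drought replicate 1 or replicate 2 the number was 4. Over all 19681 genes tested the number higher fell too, from 2406 to 1657 and 1662. *SYP121*, a syntaxin that brings PIPs to the plasma membrane, averaged 80.7 ± 3.81 CPM in WT-drought and 40.2 ± 5.27 CPM in WT-control (SD, n = 3), a log2 fold change estimated at 1.01 (SE 0.10, adjusted p = 2.72e-04 from edgeR). It was also higher in PHD6-control vs. WT-control (0.92, adjusted p = 0.00725), the only 1 of 11 regulators called there, beside 4.98% of all genes. In PHD6-drought vs. PHD6-control 3 were higher, beside 9.49% of all genes, and 1 lower, beside 12.7%. The number higher was between 0 and 6 when each library was left out in turn. It was 0 without PHD6-drought replicate 2, PHD6-control replicate 1 or PHD6-control replicate 2. Over all genes the number higher fell in these fits too, from 1867 to 946, 752 and 709.

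*OST1*, the kinase that phosphorylates PIP2A in guard cells in response to ABA, and *RMA1*, a ubiquitin ligase that marks PIP2A for degradation, passed the interaction test. *OST1* averaged 16.7 ± 2.14 CPM in PHD6-drought, 27.1 ± 3.41 in WT-drought, 24.4 ± 3.23 in PHD6-control and 17.6 ± 3.63 in WT-control (SD, n = 3). It was higher with drought in WT leaves (0.63, adjusted p = 0.0230 from edgeR) and lower in *MtPHD6* leaves (-0.55, adjusted p = 0.0198), with a difference of -1.18 (SE 0.22, adjusted p = 0.00499). The call in *MtPHD6* leaves was lost without PHD6-drought replicate 3 or PHD6-control replicate 2, and the call in WT leaves without WT-drought replicate 1 or replicate 2 (highest adjusted p 0.0959). *RMA1* averaged 14.3 ± 0.0987 CPM in PHD6-drought, 19.4 ± 1.10 in WT-drought, 16.0 ± 2.18 in PHD6-control and 12.8 ± 1.19 in WT-control. It was higher with drought in WT leaves (0.60, adjusted p = 0.00345) and did not pass in *MtPHD6* leaves (-0.16, adjusted p = 0.353). Its difference was -0.76 (SE 0.15, adjusted p = 0.00614). *OST1* and *RMA1* were the only regulators lower in PHD6-drought vs. WT-drought (-0.69 and -0.43), 2 of 11 beside 3.89% of all genes. There 0 passed without WT-drought replicate 1, beside 0.920% of all genes. Without PHD6-drought replicate 2 or 3 or WT-drought replicate 2 the number was 1, beside 1.67, 1.96 and 1.71%.

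Other transport proteins of the same membranes were compared for context. Of 11 tonoplast proteins 4 were lower in PHD6-drought vs. PHD6-control, beside 12.7% of all genes, among them the sugar carrier *TST2* (-0.68, adjusted p = 0.00497 from edgeR) and the proton pyrophosphatase *AVP1* (-0.37, adjusted p = 0.0107). Without PHD6-control replicate 1 or replicate 2 the number was 1, and without PHD6-drought replicate 2 it was 2. The lower share of all genes in these fits was 6.44, 6.64 and 8.60%. Of 7 plasma membrane proteins 1 was lower in PHD6-drought vs. WT-drought, beside 3.89% of all genes, the small membrane protein *RCI2A* (-0.43, adjusted p = 0.0450), which was not called without any 1 of the WT-drought libraries or without PHD6-drought replicate 3. In PHD6-drought vs. PHD6-control 4 of the 7 were lower, beside the same 12.7%, among them the proton pump *AHA11* (-0.37, adjusted p = 0.00859). Medians of the tonoplast and plasma membrane lists were -0.01 and -0.13 in PHD6-drought vs. WT-drought, and -0.19 and -0.30 in PHD6-drought vs. PHD6-control.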

How the data were processed

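The authors deposited 1 table of unnormalized gene counts, made from paired-end reads with HISAT2 2.0.5 and featureCounts 1.5.0-p3 per the labels' processing notes. Genome build, use of strand and treatment of multi-mapped reads are not given in the sources used here, and 935 of 936 gene positions listed by the study equal TAIR10.1, whose annotation gave gene positions, exon lengths for TPM and promoters. Of 38082 entries 2021 had no gene name (0.387 to 0.463% of a library) and were left out.

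Comparisons used edgeR 4.0.16 in R 4.3.3 (TMM, quasi-likelihood F-test), fitted to the 6 libraries involved, or to all 12 for the interaction. A filter (filterByExpr, minimum count 10 over the 4 groups) left 19681 genes, and p-values were adjusted by Benjamini-Hochberg over all of them, with calls under 0.05. Standard errors belong to the model's log2 estimates. Nothing in the labels says that libraries came from separate plantings, so p-values measure the spread between these libraries. Replicates differed by more than sampling noise in each pair (chi-square per gene of 4.66 or more). The steps were tested on simulated data.

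Alternatives were DESeq2's size factors, upper-quartile scaling, DESeq2 1.42.0, no filter, a joint fit of all 12 libraries, a replicate block, and each library left out in turn. For the lists of other genes they were chosen after seeing the data. Same-numbered libraries of WT-drought and WT-control shifted in common (r = 0.360, 0.212 and 0.115). Those of PHD6-drought and PHD6-control were mixed (r = -0.129, 0.121 and 0.320). In the comparisons of genotypes r ran from -0.489 to 0.020. The labels do not say that they are pairs. Calls and p-values of WT-drought vs. WT-control come from the fit without pairing, unless the block is named. The replicate block was run only as an alternative.

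Values are given per library for up to 6 members called in a comparison, by smallest p, and for the most abundant of each subfamily, with up to 3 genes of each other list by smallest p. Further members with values per library, such as *PIP1;4* and *SIP1;2*, were chosen after their values were seen. The members and lists were chosen with earlier results of these data known.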

Additional observations from a re-analysis of the deposited data

Results flagged for a closer look

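The drought effect differed between *MtPHD6* and WT leaves in edgeR's interaction test for 5 genes described above. On the log2 scale the effect in *MtPHD6* leaves minus that in WT leaves was -0.75 for *PIP1C*, -0.72 for *PIP2;7* and -0.80 for *DELTA-TIP* (adjusted p = 0.00271, 0.0115 and 0.0457). It was -1.18 for *OST1* and -0.76 for *RMA1* (adjusted p = 0.00499 and 0.00614). The call of *DELTA-TIP* was lost in 13 of 17 alternatives, and those of the other genes in none. The estimates of all 5 were negative in *MtPHD6* leaves and positive in WT leaves, but not all passed their own test. *RMA1* did not pass in *MtPHD6* leaves (-0.16, adjusted p = 0.353 from edgeR). In WT leaves *PIP1C*, *PIP2;7* and *DELTA-TIP* did not pass (adjusted p = 0.0891, 0.158 and 0.551). The WT estimate of *DELTA-TIP* ran from -0.02 to 0.34 over the alternatives. No group had the 4 samples needed to look for a single library far from the others.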

How the results depend on the processing

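No direction of a called member was reversed under the alternatives run. The number of members lower in PHD6-drought vs. WT-drought was 7, and 12 with DESeq2, 3 with the replicate block, 3 with all 12 libraries fitted together, and 1 to 9 with each library left out. Of all genes 3.89% were lower there, and 5.31% with DESeq2, 2.33% with the block and 3.25% with all 12 libraries. With each library left out it was 0.920 to 6.19%. In WT-drought vs. WT-control 2 members were lower, and 0 to 5 with each library left out. Of all genes 1413 were lower there, and 658 to 2361 with each library left out. In that comparison 0 members were higher, and 1 with DESeq2, 1 with the replicate block, 2 with all 12 libraries and 0 to 1 with a library left out. Of all genes 2406 were higher there, and 2357 with DESeq2, 2584 with the block and 2557 with all 12 libraries. In PHD6-drought vs. PHD6-control 10 members were lower, and 14 with DESeq2, 10 with the block and 8 with all 12 libraries. Of all genes 12.7% were lower there, and 13.0% with DESeq2, 11.7% with the block and 14.0% with all 12 libraries. With a library left out 6 to 13 members were lower, beside 6.44 to 13.0% of all genes. In PHD6-control vs. WT-control 0 members were higher, and 1 with DESeq2 and 1 with all 12 libraries. Of all genes 839 were higher there, and 1219 with DESeq2 and 1262 with all 12 libraries. The interaction gave 3, and 2 with the block and 2 to 3 with a library left out.

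Among other genes, regulators higher in PHD6-drought vs. PHD6-control numbered 3, and 5 with upper-quartile scaling, 5 with DESeq2, 5 with the block, 6 with all 12 libraries and 0 to 6 with a library left out, those lower 1 and 0 to 1, those higher in WT-drought vs. WT-control 7 and 4 to 7, and those lower in PHD6-drought vs. WT-drought 2 and 0 to 2. The plasma membrane protein lower in PHD6-drought vs. WT-drought was lost with the block and with all 12 libraries (0 each) and with a library left out (0 to 1). Water deficit markers lower there numbered 1 of 7, beside 3.89% of all genes. That number was 0 with upper-quartile scaling, 2 with DESeq2, 0 with all 12 libraries and 0 to 1 with a library left out. Water deficit markers lower numbered 5 and 3 to 6 in WT-drought vs. WT-control, and 7 and 4 to 7 in PHD6-drought vs. PHD6-control. Of 11 tonoplast proteins 2 were higher in WT-drought vs. WT-control (0 to 2), beside 12.2% of all genes, and 1 lower (0 to 3), beside 7.18%. In PHD6-drought vs. PHD6-control 4 of the 11 were lower (1 to 4), beside 12.7%. Of 7 plasma membrane proteins 1 was lower in WT-drought vs. WT-control (0 to 4), beside the same 7.18%. With a library left out 1595 to 2627 of all genes were higher in WT-drought vs. WT-control and 658 to 2361 lower. The cause of these shifts was not tested. With 3 libraries a group, calls with adjusted p near 0.05 rest on single libraries, and precision is low for scarce members: *TIP4;1*, at a mean of 0.535 CPM, had standard errors of 0.41 to 0.67 on the log2 scale.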
